A study of Mus musculus with 4 samples.

Results

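Inflammasomes are protein platforms that sense microbial or danger signals and activate caspase-1, and they are described here through 10 genes in regulatory T (Treg) cells, which depend on the transcription factor Foxp3 and hold other lymphocytes in check. The genes were chosen by name, as the rows of the deposited count table whose identifier is Nlrp3, Naip2, Naip5, Naip6, Aim2, Pycard, Casp1, Gsdmd, Nek7 or Il18. Earlier results of these data were known when they were chosen. All 10 were found among the 20837 genes of the table, and all 10 passed the filter on low counts, which kept 13861 genes. The mutant libraries, called cKO, were labelled Foxp3YFP-CreKmt2dfl/fl: a Cre recombinase driven by Foxp3 and tagged with a yellow fluorescent protein deletes loxP-flanked Kmt2d, a histone H3 lysine 4 methyltransferase gene. Their controls, called WT, were labelled Foxp3YFP-CreKmt2d+/+ and carried the same Foxp3-driven Cre with intact Kmt2d. There were 2 libraries in each group, all labelled as splenic Treg cells. The labels give no age for these animals and do not say whether a library came from 1 mouse or several, so a p-value reflects only how far these 4 libraries spread, and that spread could be technical. The extraction protocol in the labels speaks of bone marrow macrophages of a different knockout, against the tissue, cell type and genotype fields followed here.

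P2X7, the product of P2rx7 named in the title of the study, is a channel opened by extracellular ATP, and on T cells it is known for shedding and death responses to ATP and NAD. In macrophages, opening of P2X7 lets potassium leave the cell. The sensor NLRP3 then binds the kinase NEK7, the adaptor ASC (encoded by Pycard) joins them, and caspase-1 is activated. Active caspase-1 cleaves gasdermin D, which forms pores in the membrane in the lytic death called pyroptosis, and matures interleukin 18. The NAIP proteins do not read ATP: they bind bacterial flagellin (NAIP5 and NAIP6) or the rod of bacterial secretion systems (NAIP2) and pair with NLRC4. AIM2 binds cytosolic DNA.

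The 3 Naip genes lie next to each other on the minus strand of chromosome 13 (GRCm38, the assembly called mm10) and are close copies, which bears on how their reads can be counted, so their sequences are shown first. By RefSeq Naip2 spans 100144063 to 100202122, Naip5 spans 100211735 to 100250930 and Naip6 spans 100281121 to 100316616. The coding sequences of Naip5 and Naip6 were identical at 4081 of 4209 aligned bases (97.0%), those of Naip5 and Naip2 at 3779 of 4206 (89.8%) and those of Naip6 and Naip2 at 3765 of 4206 (89.5%). The first 90 coding bases of each, from the GENCODE M21 transcripts, follow with capitals at the 30 positions where the 3 genes are not all alike.
Naip5, chr13:100246110-100246199, minus strand: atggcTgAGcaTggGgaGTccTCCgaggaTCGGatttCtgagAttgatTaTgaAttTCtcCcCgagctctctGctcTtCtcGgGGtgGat
Naip6, chr13:100316462-100316551, minus strand: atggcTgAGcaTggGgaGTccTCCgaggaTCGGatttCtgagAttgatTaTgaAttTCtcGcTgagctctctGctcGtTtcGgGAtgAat
Naip2, chr13:100189309-100189398, minus strand: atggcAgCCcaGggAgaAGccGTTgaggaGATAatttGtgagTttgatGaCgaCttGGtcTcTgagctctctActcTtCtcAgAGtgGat
In this stretch Naip6 differed from Naip5 at 6 bases and Naip2 from Naip5 at 26.

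Upstream of their annotated starts the 3 genes paired differently, though these starts lie at unlike distances from the first coding base. The 250 bases before the RefSeq starts of Naip5 and Naip2 (GRCm38.p6) hold an identical run of 34 bases, shown in capitals, while the longest run that the Naip6 window shares is 6 bases with Naip5 and 8 bases with Naip2.
Naip5, chr13:100247337-100247586, minus strand: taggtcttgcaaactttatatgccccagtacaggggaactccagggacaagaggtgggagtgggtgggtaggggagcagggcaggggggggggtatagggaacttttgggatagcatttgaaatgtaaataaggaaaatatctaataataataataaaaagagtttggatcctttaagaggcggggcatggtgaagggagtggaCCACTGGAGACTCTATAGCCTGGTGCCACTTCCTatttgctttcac
Naip2, chr13:100202123-100202372, minus strand: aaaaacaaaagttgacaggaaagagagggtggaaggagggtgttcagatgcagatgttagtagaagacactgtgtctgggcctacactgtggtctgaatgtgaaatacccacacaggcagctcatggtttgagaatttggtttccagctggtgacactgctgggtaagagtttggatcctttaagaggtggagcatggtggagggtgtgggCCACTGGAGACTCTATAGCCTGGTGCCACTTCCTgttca
The run ends 13 bases before the start of Naip5 and 6 bases before that of Naip2. Both strands of the 3 windows were searched for 8 short motifs. The letters TGTGGT (RUNX) occurred once each in the Naip6 and Naip2 windows (14.0% of 32851 RefSeq promoter windows of that length), and the letters TATAAA once in the Naip5 window (12.4%), on the opposite strand and 231 to 236 bases before the start. None of the 3 windows held the letters searched for NF-kB (1.41% of windows), the interferon response element (2.98%), AP-1 (TGANTCA, 6.75%), STAT (TTCNNNGAA, 7.02%), ETS (CCGGAA, 12.0%) or forkhead factors (TGTTTAC, 3.17%), which says only that these letters are not there. A short stretch just after the RefSeq start was found in a GENCODE transcript of the same gene for Naip6, but not for Naip5 or Naip2. Whether a transcript begins at these starts was not checked otherwise. The Naip5 window lies inside the span given above. On the minus strand the Naip6 window borders its start at 100316617, close to its first coding base at 100316551. The Naip5 and Naip2 windows do so at 100247337 and 100202123, further from their first coding bases at 100246199 and 100189398. Whether the 3 windows correspond to each other was not tested.

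How far copies can blur a count was measured as the share of windows along each gene's transcript that also occur, letter for letter on either strand, in a transcript of another gene. Of 50-base windows, 36.9% of Naip5, 21.5% of Naip6 and 19.4% of Naip2 were shared in this way, and of 150-base windows 8.25%, 1.89% and 0.556%. The partners were mostly each other, Naip1 and the pseudogene Naip3: at 50 bases Naip5 shared 22.3% of its windows with Naip6, 14.5% with Naip3 and 13.8% with Naip1. Naip1 had 9 and 5 counts in the cKO libraries and 6 and 7 counts in the WT libraries and was not tested. Nlrp3, Casp1, Gsdmd and Il18 had 0 shared windows at all 3 lengths, and Aim2 and Nek7 at most 0.932% and 2.13%. Pycard shared 11.8% at 50 bases and 9.20% at 150 bases, nearly all with Gm45205, which overlaps it on the opposite strand. The Pycard transcript used had 3800 bases, more than its RefSeq span given below. The read length and the treatment of reads with several matches were not analysed here.

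**Figure D1:**
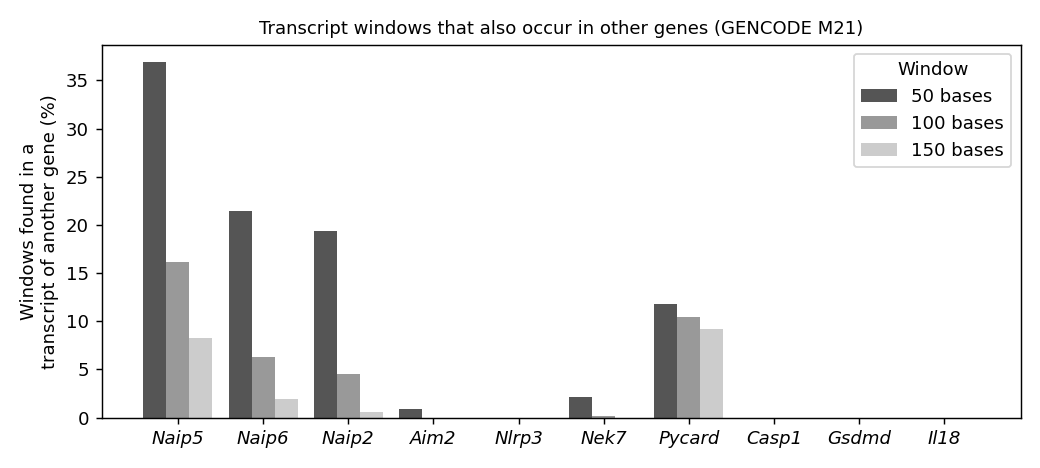
Percent of windows of 50, 100 and 150 bases (shades of grey) in each gene's longest coding transcript that also occur in a transcript of another gene in GENCODE M21. The 3 Naip genes and Pycard stand above the other 6 genes, with Naip5 highest at 36.9% for 50 bases.

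Before the comparison, the libraries were checked. Total counts were between 28442416 and 35560491, and 3 counts, the limit for an undetected gene, correspond to 0.0864 to 0.103 CPM, counting error only. Values below are CPM, library-scaled read counts with TMM factors applied. Kmt2d measured 836 and 793 CPM in the cKO libraries, against 721 and 704 CPM in the WT libraries, and the whole-gene count was higher (log2 fold change 0.19, edgeR quasi-likelihood adjusted p = 0.0375). It includes exons outside any deleted part and therefore checks nothing about the labels. P2rx7 had 95.9 and 91.5 CPM in cKO, against 185 and 199 CPM in WT (log2 fold change -1.03, edgeR quasi-likelihood adjusted p = 0.00205), and Foxp3 170 and 180 CPM in cKO, against 278 and 250 CPM in WT. The 8 pan T markers summed to 3293 and 3579 CPM in cKO, against 4149 and 3999 CPM in WT, without overlap. Of these 8, 5 fell (Cd3d, Cd3g, Cd247, Cd2 and Lck), 0 rose and 3 did not pass. The macrophage gene C1qa was at 34.0 and 26.1 CPM in cKO and 35.4 and 50.6 CPM in WT, so transcripts of both cell types were present in all 4 libraries.

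Several of the 10 genes are also expressed by myeloid cells, whose markers moved between the libraries. The 13 neutrophil markers summed to 653 and 1383 CPM in cKO, against 80.4 and 206 CPM in WT, and 13 of 13 rose. The 8 monocyte markers summed to 1013 and 897 CPM in cKO, against 479 and 585 CPM in WT, and 7 of 8 rose. The 12 macrophage markers summed to 446 and 315 CPM in cKO, against 383 and 581 CPM in WT. Of these 12, 1 fell, 0 rose and 11 did not pass, and none was at 0 in both WT libraries. The 8 Treg markers summed to 2432 and 3026 CPM in cKO, against 3565 and 2786 CPM in WT, and 4 of 8 fell, 1 rose and 3 did not pass. The 8 markers of NK and CD8 T cells summed to 231 and 244 CPM in cKO, against 130 and 155 CPM in WT, and 7 of 8 rose. The part of these other cells in the results below was not tested. In bulk RNA, fewer cells of a type and less RNA per cell cannot be told apart.

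**Figure D2:**
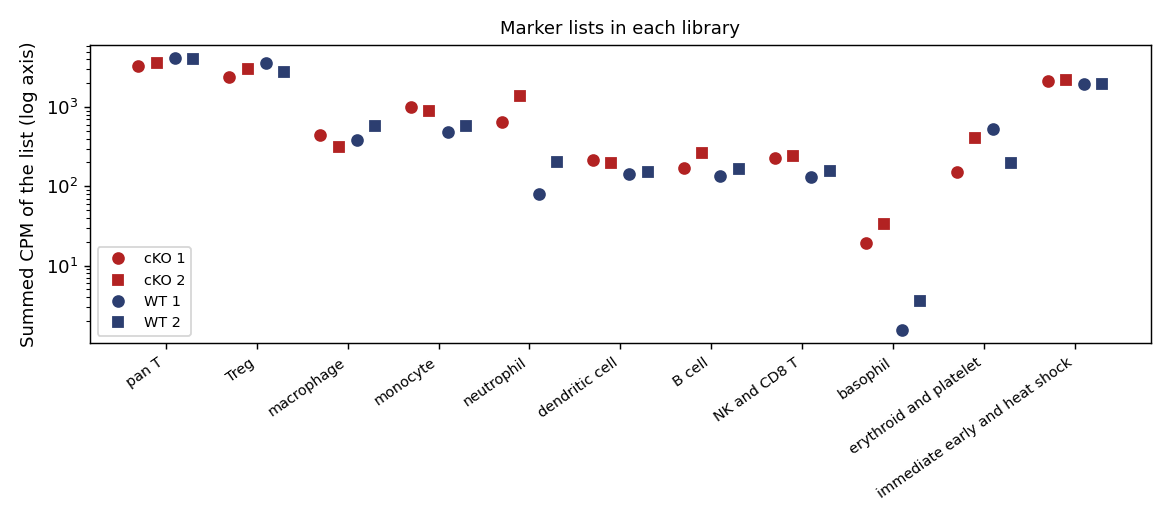
Summed CPM (log axis) of each marker list in the 2 cKO libraries (red) and the 2 WT libraries (blue), with circles for replicate 1 and squares for replicate 2. The neutrophil sums of 653 and 1383 CPM in cKO lie above 80.4 and 206 CPM in WT, while the macrophage sums of the groups overlap.

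Among the 10 inflammasome genes, the bacterial sensors Naip5 and Naip6, the DNA sensor Aim2 and the kinase gene Nek7 fell in cKO, the pore gene Gsdmd rose slightly, and Nlrp3, Naip2, Pycard, Casp1 and Il18 did not pass the test (edgeR quasi-likelihood, adjusted p under 0.05 over all 13861 genes). The 4 falls among 10 genes stand beside 15.1% of all tested genes that fell, and the 1 rise beside 16.5% that rose. In either direction 5 of 10 passed, against 31.6% of all tested genes. The 10 genes were chosen with earlier results of these data known, so these shares describe them and test no enrichment. The median log2 fold change was -0.28 over the 10 genes and 0.0003 over all tested genes. In 8 of the 10 genes the cKO libraries did not overlap the WT libraries, 7 below and 1 above, beside 66% of all tested genes (30.9% below and 35.1% above). Leaving out cKO 1 left 4 of the 10 genes past the threshold, beside 15.2% of all genes tested. The number was 3 when cKO 2 was left out (17.5% of all genes), 3 when WT 1 was left out (13.3%) and 3 when WT 2 was left out (19.2%).

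**Figure D3:**
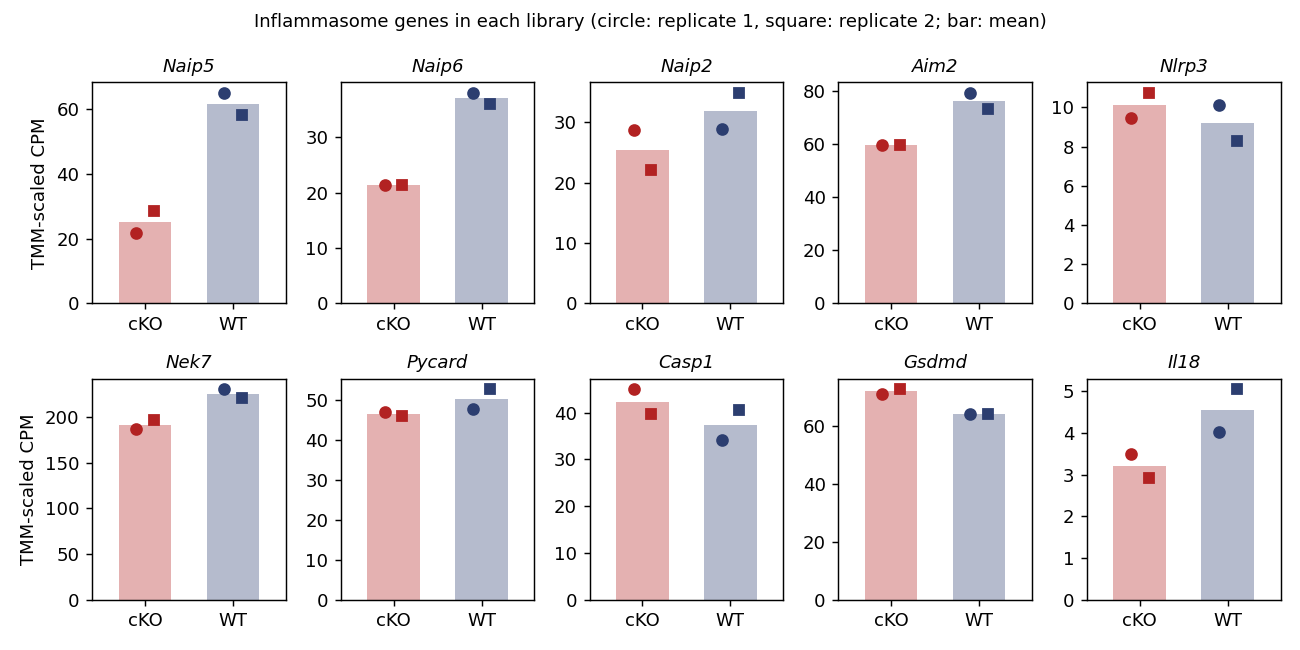
TMM-scaled CPM of the 10 genes in cKO (red, left) and WT (blue, right), with bars at the mean of 2 libraries, circles for replicate 1 and squares for replicate 2. The groups are far apart for Naip5 (21.6 and 28.5 CPM in cKO, 65.1 and 58.1 CPM in WT) and overlap for Nlrp3 and Casp1.

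Naip5 had the largest change of the 10. It measured 21.6 and 28.5 CPM in the cKO libraries, against 65.1 and 58.1 CPM in the WT libraries, means of 25.1 ± 4.90 and 61.6 ± 4.93 CPM (SD, n = 2 libraries each). Neither cKO library reached the WT range, and the level was 0.408 times that of WT (log2 fold change -1.29, SE 0.14, edgeR quasi-likelihood adjusted p = 0.00435). Naip6 measured 21.4 and 21.3 CPM in cKO, against 38.0 and 36.1 CPM in WT. It fell to 0.576 times the WT level (log2 fold change -0.80, SE 0.06, edgeR quasi-likelihood adjusted p = 0.0032). Here too the groups did not overlap, and the cKO libraries differed from each other by less than the WT libraries did. Both calls held under every alternative run, with log2 fold changes between -1.51 and -1.12 for Naip5 and between -0.84 and -0.76 for Naip6.

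Naip2 did not pass. It measured 28.8 and 22.1 CPM in cKO, against 28.9 and 34.9 CPM in WT, so that cKO 1 and WT 1 were nearly equal (log2 fold change -0.33, 95% interval -0.70 to 0.05, edgeR quasi-likelihood adjusted p = 0.161). The library with the lower Naip2 level within each group, cKO 2 and WT 1, was also the one with the lower summed macrophage markers, as it was for Pycard, Casp1 and Il18. Naip5, Nek7, Nlrp3 and Gsdmd ran the opposite way in both groups, and Naip6 and Aim2 followed the sums in 1 group only. The WT values of Gsdmd were nearly equal, at 63.96 and 63.92 CPM. The summed Treg markers also ran opposite to the macrophage sums in both groups. With 2 libraries in each group any gene can fall into such an order, and its share over all genes was not computed. The part of either cell type was not tested. Without cKO 1 Naip2 passed (log2 fold change -0.53, edgeR adjusted p = 0.043), as it did with no filter on low counts.

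Reads that fit several copies can be assigned to any of them, so the 3 genes were also added into 1 row before the fit, a step chosen after seeing the data. The sum was 71.8 and 71.9 CPM in cKO, against 132 and 129 CPM in WT, means of 71.8 ± 0.130 and 131 ± 2.05 CPM (SD, n = 2 each). In absolute CPM, the sums within a group lay closer together than the levels of Naip5 or Naip2 did. They were not closer in CPM than those of Naip6, whose SDs were 0.0253 CPM in cKO and 1.39 CPM in WT. The Naip6 means were lower, at 21.3 CPM in cKO and 37.0 CPM in WT, and these SDs are not scaled to the mean. The summed row fell by 0.86 on the log2 scale (SE 0.05, edgeR quasi-likelihood adjusted p = 0.00195 over 13859 rows), and it passed in 13 of 13 settings, with log2 fold changes between -0.88 and -0.83. Reads exchanged among these 3 genes leave the sum unchanged, whereas reads exchanged with Naip1 or Naip3 do not.

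The proportions of the copies, which need no scaling between libraries, were also compared. There were 1.01 and 1.34 Naip5 counts per Naip6 count in cKO, against 1.71 and 1.61 in WT, and 0.749 and 1.29 Naip5 counts per Naip2 count in cKO, against 2.25 and 1.66 in WT. Counts of Naip6 per count of Naip2 were 0.741 and 0.965 in cKO, against 1.32 and 1.03 in WT. Each of the 3 ratios was lower in both cKO libraries than in either WT library, with a log2 difference of -0.51, -0.98 and -0.46. The exact permutation test (2-sided, 3 ratios compared) gave p = 0.333 for each, the smallest p that 2 against 2 libraries allow. It therefore cannot decide whether the ratios differ between the groups. Any 2 of the ratios fix the other, so they are not separate results. How often other gene pairs separate in this way was not computed. Of 5 tested genes listed beside the Naip cluster, 1, the carboxylase subunit gene Mccc2, rose by 0.45 on the log2 scale (edgeR quasi-likelihood adjusted p = 0.0209), 0 fell and 4 did not pass. The call of Mccc2 ended with DESeq2 (adjusted p = 0.149) and without each library in turn (edgeR adjusted p between 0.0679 and 0.119). Nlrc4, whose product oligomerises with ligand-bound NAIP, measured 3.64 and 3.68 CPM in cKO and 3.11 and 3.81 CPM in WT and did not pass (log2 fold change 0.08, edgeR adjusted p = 0.782).

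Aim2 (chromosome 1, 173349547 to 173466040, plus strand) measured 59.8 and 59.6 CPM in cKO, against 79.3 and 73.2 CPM in WT. The groups did not overlap, and Aim2 fell to 0.782 times the WT level (log2 fold change -0.35, SE 0.06, edgeR quasi-likelihood adjusted p = 0.00904). The call held under every alternative run, with log2 fold changes between -0.41 and -0.30. Cadm3, an adhesion gene that overlaps Aim2 on the opposite strand, had 6.57 and 5.73 CPM in cKO, against 3.05 and 3.02 CPM in WT, and so moved the other way. Whether the counting used strand is not stated, so reads of the overlapping part could have gone to either gene.

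The other members of the AIM2-like family, interferon-inducible proteins that Aim2 belongs to, did not follow Aim2. Tests were possible for 10 of them: 7 passed as higher, 0 as lower and 3 in neither direction, with a median log2 fold change of 0.45. Of all tested genes 16.5% passed as higher and 15.1% as lower. One of the 7, Ifi203 (log2 fold change 0.23), lost its call whichever library was left out (edgeR adjusted p between 0.0598 and 0.126). Ifi204, a DNA-binding member, measured 16.4 and 15.2 CPM in cKO, against 6.66 and 6.83 CPM in WT, and so was higher (log2 fold change 1.23, SE 0.10, edgeR quasi-likelihood adjusted p = 0.00297). Ifi207 rose by 0.96 and Ifi209 by 0.38, and Ifi206 reached 172 and 160 CPM in cKO, against 110 and 120 CPM in WT. The 3 that did not pass were Ifi205 (log2 fold change 0.58), Ifi208 (-0.18) and Ifi213 (0.24). These genes are close paralogs of each other, and reads could have been split between them. The monocyte markers were higher in the same libraries, with a list median of 0.99.

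Nlrp3 (chromosome 11, 59541569 to 59566955, plus strand), the sensor that acts after potassium efflux, measured 9.46 and 10.7 CPM in cKO, against 10.1 and 8.30 CPM in WT. The groups overlapped, and the log2 fold change of 0.13 did not pass (SE 0.14, 95% interval -0.21 to 0.47, edgeR quasi-likelihood adjusted p = 0.54). For this bulk count the interval did not reach the log2 fold change of P2rx7 in the same libraries, -1.03. Neutrophil and monocyte markers were higher in cKO, and their part in the Nlrp3 count was not tested. Nek7 (chromosome 1, 138483837 to 138619757, minus strand), the kinase that NLRP3 binds, measured 187 and 197 CPM in cKO, against 231 and 221 CPM in WT. The cKO libraries were the lower pair (log2 fold change -0.23, SE 0.05, edgeR quasi-likelihood adjusted p = 0.0229). Nek7 lost its call whichever library was left out: the edgeR adjusted p was 0.141 or 0.0581 with cKO 1 or cKO 2 removed and 0.112 or 0.0507 with WT 1 or WT 2 removed. Among 7 other NIMA-related kinases, 1 rose, 0 fell and 6 did not pass. The riser was the mitotic kinase gene Nek2, at 19.5 and 18.1 CPM in cKO, against 10.8 and 12.3 CPM in WT (edgeR adjusted p = 0.00633).

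The adaptor and the protease downstream of these sensors did not pass. Pycard (chromosome 7, 127991373 to 127993867, minus strand) measured 47.1 and 46.0 CPM in cKO, against 47.7 and 52.7 CPM in WT, and its groups were separated by less than the spread of the WT libraries (log2 fold change -0.11, 95% interval -0.27 to 0.05, edgeR quasi-likelihood adjusted p = 0.282). Casp1 (chromosome 9, 5298517 to 5307281, plus strand) measured 45.0 and 39.6 CPM in cKO, against 34.1 and 40.6 CPM in WT. The groups overlapped (log2 fold change 0.18, 95% interval -0.08 to 0.44, edgeR quasi-likelihood adjusted p = 0.262). In the list of related caspases 0 of 4 passed in edgeR, also at an unadjusted p of 0.05: Casp4, which senses bacterial lipopolysaccharide inside the cell, had 32.1 and 29.7 CPM in cKO and 29.6 and 33.5 CPM in WT, and Casp8, an initiator of apoptosis, had 179 and 176 CPM in cKO and 174 and 173 CPM in WT.

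Gsdmd and Il18 encode the substrates of caspase-1 in this set. Gsdmd (chromosome 15, 75862144 to 75867408, plus strand) measured 71.0 and 72.6 CPM in cKO, against 64.0 and 63.9 CPM in WT. Both cKO libraries lay above both WT libraries, at 1.12 times the WT level (log2 fold change 0.17, SE 0.05, edgeR quasi-likelihood adjusted p = 0.0456). It lost its call whichever library was left out (edgeR adjusted p between 0.145 and 0.265), with RLE scaling (edgeR adjusted p = 0.0642), with no filter on low counts (0.0938) and with DESeq2 (adjusted p = 0.319). Gsdmd shares chromosome 15 with the targeted gene Kmt2d, 23.0 Mb away. Il18 (chromosome 9, 50554700 to 50581841, plus strand) was scarce, with 102 and 101 counts in cKO and 140 and 154 counts in WT, or 3.51 and 2.93 CPM in cKO, against 4.03 and 5.05 CPM in WT. The groups did not overlap, but the log2 fold change of -0.50 did not pass (SE 0.19, 95% interval -0.96 to -0.03 for the gene alone, edgeR quasi-likelihood adjusted p = 0.0987). It passed with no filter on low counts (edgeR adjusted p = 0.0471). Bco2, which overlaps Il18 on the opposite strand, was at or under 1.25 CPM in all 4 libraries.

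**Figure D4:**
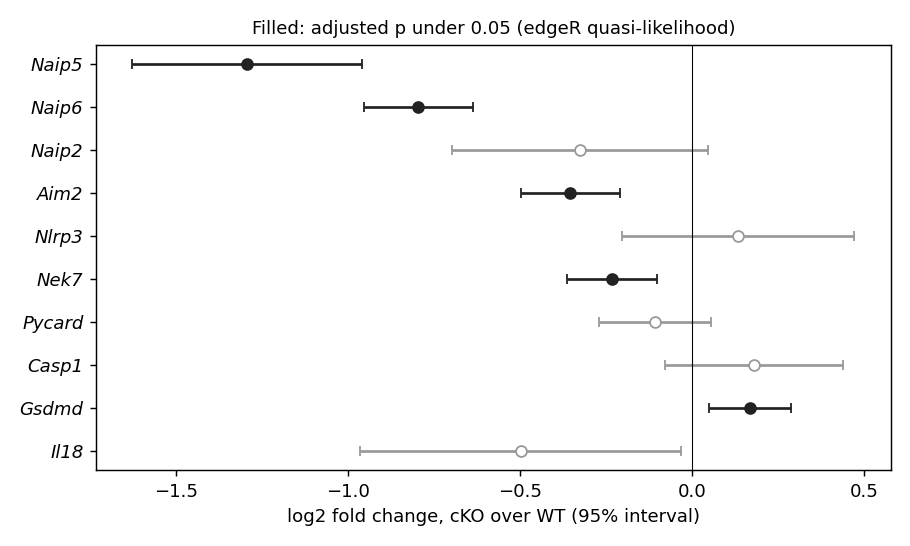
Log2 fold change of cKO over WT for the 10 genes with 95% intervals, filled where the edgeR quasi-likelihood adjusted p was under 0.05. The intervals of Naip5, Naip6, Aim2 and Nek7 lie below 0 and that of Gsdmd above 0, while the interval of Il18 lies below 0 without passing the adjusted test.

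Levels were compared between genes only per length, as CPM per kb of the union of annotated exons. In cKO Gsdmd was highest with 30.2 ± 0.459 CPM per kb, followed by Casp1 (28.3 ± 2.51), Nek7 (26.0 ± 0.921), Aim2 (17.0 ± 0.0369), Pycard (12.3 ± 0.202), Naip2 (5.25 ± 0.98), Naip5 (4.82 ± 0.942), Naip6 (3.12 ± 0.00371), Il18 (3.12 ± 0.399) and Nlrp3 (2.49 ± 0.225), each as mean ± SD over 2 libraries. Among neighbours in this order, the libraries of Gsdmd and Casp1, Casp1 and Nek7, Naip2 and Naip5, and Naip6 and Il18 overlapped. In WT the highest was Nek7 with 30.6 ± 0.962 CPM per kb, followed by Gsdmd (26.9 ± 0.0115), Casp1 (25.0 ± 3.06), Aim2 (21.8 ± 1.22), Pycard (13.2 ± 0.939), Naip5 (11.8 ± 0.948), Naip2 (6.58 ± 0.882), Naip6 (5.43 ± 0.204), Il18 (4.41 ± 0.699) and Nlrp3 (2.27 ± 0.316). Among neighbours in the WT order only Gsdmd and Casp1 had overlapping libraries. The cKO libraries of Naip5 thus overlapped those of Naip2, while Naip5 stood above Naip2 and Naip6 in both WT libraries. With coding length in place of the exon union, Nek7 was first in cKO with 212 CPM per kb, followed by Pycard (80.4), Aim2 (56.2) and Gsdmd (49.1), and only 3 of the 10 genes kept their WT place, among them Nek7 as the highest and Nlrp3 as the lowest. For Pycard the exon union of 3800 bases was longer than the RefSeq span given above, and the coding length was 579 bases. The order in both groups thus depends on the length used.

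The other genes of the pathway, 86 on 11 lists, put these values in context. Of 77 that were tested, 21 rose, 13 fell and 43 did not pass, with a median log2 fold change of 0.03. In either direction 44.2% passed, against 31.6% of all tested genes. The lists too were chosen with earlier results of these data known, so this share tests no enrichment. Of all tested genes 16.5% rose and 15.1% fell, and the count of each list, here and above, is to be read beside these shares. Upstream of NLRP3, in the list of ATP release and potassium efflux, 3 of 6 fell, 1 rose and 2 did not pass. Beside P2rx7, the volume-regulated channel subunit gene Lrrc8a (log2 fold change -0.29) and the potassium channel gene Kcnn4 (-0.26) fell, and the potassium channel gene Kcnk6 rose by 0.32. The ATP release channel gene Panx1 measured 62.2 and 64.2 CPM in cKO and 63.8 and 64.6 CPM in WT and did not pass. The calls of Kcnk6, Lrrc8a and Kcnn4 were each lost in at least 3 of the 4 fits that leave out a library.

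The list for priming of the NLRP3 pathway through NF-kB also holds an inhibitor gene, Tnfaip3. On it 3 of 7 were lower, 1 was higher and 3 did not pass, and the count mixes genes of opposite roles. Tnfaip3, the NF-kB feedback inhibitor A20, measured 2346 and 2725 CPM in cKO, against 4345 and 3863 CPM in WT (log2 fold change -0.69, SE 0.10, edgeR quasi-likelihood adjusted p = 0.00607), and the subunit genes Rela and Nfkb1 fell by 0.36 and 0.22. The call of Nfkb1 was lost without each library in turn, and that of Rela without WT 1 or cKO 1. The receptor gene Tlr2 rose by 0.59, beside a monocyte list median of 0.99 in the same libraries. On the list of 5 for guanylate-binding proteins, interferon-induced GTPases that coat bacteria, 4 rose and 1 fell. Gbp2 rose by 0.46, Gbp3 by 0.41 and Gbp5 by 0.37 on the log2 scale, and Irf1, a transcription factor gene on that list, fell by 0.30, a call lost without WT 2 or cKO 1 (edgeR adjusted p = 0.0567 and 0.0718). Gbp family members are similar in sequence, and their reads could have been split.

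Among other sensors and adaptors 4 of 12 rose, 1 fell and 7 did not pass. Txnip, a thioredoxin-binding protein that can join NLRP3, measured 980 and 900 CPM in cKO, against 517 and 582 CPM in WT (log2 fold change 0.78, SE 0.08, edgeR quasi-likelihood adjusted p = 0.00412). The pyrin gene Mefv rose by 0.73 and the myeloid adaptor gene Card9 by 1.37, with levels under 10 CPM in all 4 libraries, beside higher neutrophil and monocyte markers. Pstpip1, which encodes a pyrin-binding protein, fell by 0.21, a call lost without each library in turn.

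At the executing end 1 of 6 genes for gasdermins and membrane rupture or repair rose, 1 fell and 4 did not pass. Ninj1, whose product ruptures the membrane after pores form, measured 11.8 and 14.0 CPM in cKO, against 19.4 and 19.4 CPM in WT (log2 fold change -0.59, SE 0.10, edgeR quasi-likelihood adjusted p = 0.0105, and 0.0529 without WT 1). None of the 4 necroptosis genes passed in edgeR, also at an unadjusted p of 0.05.

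In the interleukin 1 family 1 of 11 rose, 4 fell and 6 did not pass. Il18rap, a subunit of the interleukin 18 receptor, measured 59.9 and 51.0 CPM in cKO, against 27.8 and 31.6 CPM in WT, and was higher (log2 fold change 0.90, SE 0.10, edgeR quasi-likelihood adjusted p = 0.00489). The summed markers of NK and CD8 T cells were higher in the same libraries, with a list median of 0.57, and their part in this value was not tested. Among those that fell were Il1rl1, the receptor of interleukin 33 (log2 fold change -2.23), the decoy receptor gene Il1r2 (-0.82) and the inhibitory receptor gene Sigirr (-0.62). Il1b measured 36.8 and 33.0 CPM in cKO, against 40.7 and 41.5 CPM in WT, and did not pass (log2 fold change -0.24, edgeR adjusted p = 0.0514, and 0.0393 with RLE scaling).

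**Figure D5:**
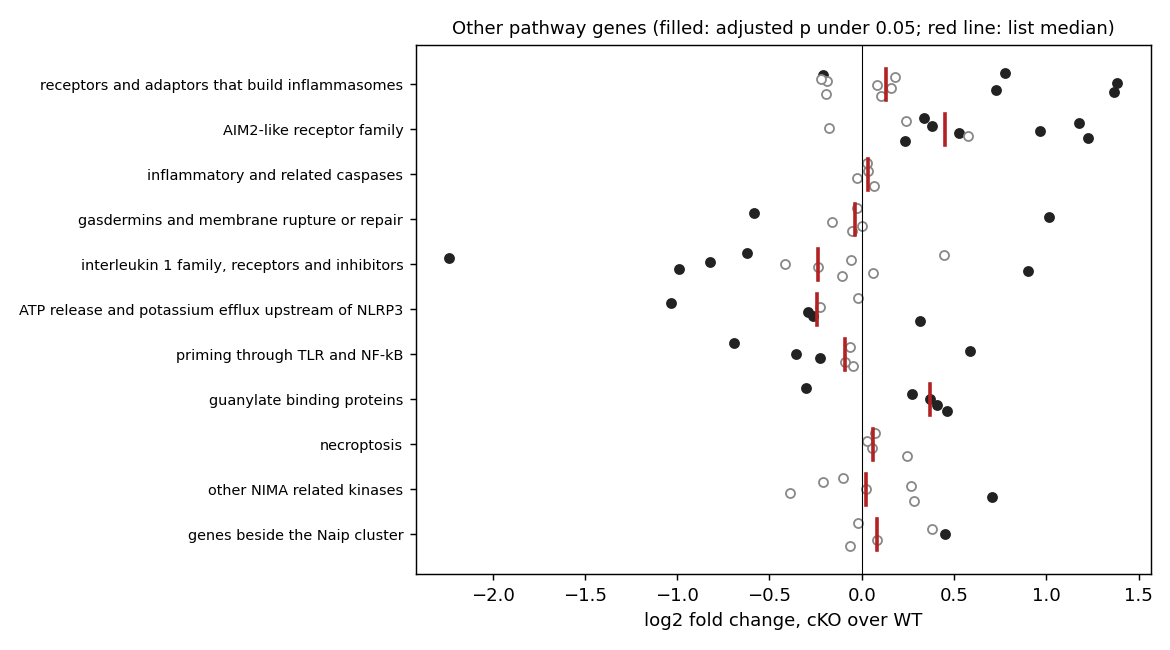
Log2 fold change of cKO over WT for 77 tested genes on 11 lists around the inflammasome, with filled points where the edgeR quasi-likelihood adjusted p was under 0.05 and a red line at each list's median. Points of the AIM2-like family lie mostly right of 0 with a median of 0.45, and P2rx7 and Il1rl1 lie far left at -1.03 and -2.23.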

How the data were processed

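The authors deposited whole-number read counts per gene for 4 libraries. The submitters' processing notes name mm10. Aligner, counter and annotation were not analysed here. Groups follow the sample titles. The 10 genes and the gene lists were chosen with earlier results of these data known. Pathway genes are named when called and averaging at least 1 CPM, up to 4 per list in order of p, or when 5 or fewer on a list did not pass. Nlrc4, Il1b and Ifi203 were named after their values were seen.

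Genes were filtered with filterByExpr (minimum count 10, total 15), scaled by TMM and compared with edgeR 4.0.16 in R 4.3.3 (glmQLFit and glmQLFTest, group as the only term, 2-sided). Benjamini-Hochberg adjustment covered 13861 genes, with a threshold of 0.05. The SE of a log2 fold change came from the F statistic, as its size over the root of F. The fits were also run on 3 simulations of 2 against 2 libraries with 200 changed genes in each. There 13.5% of edgeR calls were false, more than the threshold names, and 60.6% of 1.5-fold changes were called. In the data 4380 genes were called, so this share of false calls does not carry over directly. Adjusted p-values near the threshold could be optimistic, and by how much was not tested. Alternatives were RLE or upper-quartile factors, DESeq2 1.42.0, limma 3.58.1 (voom), 2 other filters on low counts, a replicate block, leaving out each library, and a threshold of 0.1. The block was also run with the replicate numbers crossed, a step added after seeing the data. Exon lengths and transcripts came from GENCODE M21, gene spans and promoters from RefSeq GRCm38.p6. Coding sequences were aligned with mafft 7.526.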

Additional observations from a re-analysis of the deposited data

How the results depend on the processing

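Among the 10 genes, Naip5, Naip6 and Aim2 kept their call in all 13 settings, Nek7 in 8 and Gsdmd in 5, while Nlrp3 and Pycard passed in 0. Without passing in the comparison reported, Naip2 passed in 3 of 13, Il18 in 2 of 12 and Casp1 in 1 of 13. All these tallies include the block with crossed numbers described below, in which Casp1 had its only pass. Naip2, Il18, Nek7 and Gsdmd also passed in it. Leaving out each library in turn, 3 to 4 of the 10 genes, 1869 to 2747 of all genes and 21 to 26 pathway genes passed, against 5, 4380 and 34 with all libraries. DESeq2 called 2876 genes. The replicate numbers are not said to pair samples, and same-numbered libraries deviated in opposite directions (r = -0.32 over 13861 genes). With the replicate number as a block 2292 genes (16.5%) and 3 of the 10 passed, Gsdmd and Nek7 losing their calls. With crossed numbers in the block, added after seeing the data, 6713 genes (48.4%) and 8 of the 10 passed. The log2 difference in the Naip5 to Naip6 ratio was -0.71 to -0.31 when a library was left out. Values without a call turned sign when a library was left out for Nlrp3 (-0.0013 to 0.28), Nlrc4 (-0.056 to 0.23) and Casp4 (-0.12 to 0.063), and for Panx1 with upper-quartile scaling (0.0048). Coding length kept the place of 3 of 10 genes. All calls split into 2546 higher and 1877 lower with upper-quartile scaling, against 2292 and 2088. The causes were not tested.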
